A study of Homo sapiens with 4 samples.

Results

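ZNF217 is a zinc finger DNA-binding protein that recruits corepressor complexes and regulates transcription, and the study examined it as a circuit factor in acute myeloid leukemia (AML). The regions described here were ZNF217 peaks that lay at the start of a single protein-coding gene in U937 cells and that no MV4-11 peak overlapped. U937 is an established monocytic line that came from a histiocytic lymphoma and carries a PICALM fusion, and MV4-11 is an established monocytic AML line with a KMT2A fusion. Neither line was treated in these libraries. ZNF217 was mapped in both lines by CUT&Tag, in which a tethered transposase cuts the DNA around an antibody target, with 1 ZNF217 library per line. The series also labels 1 IgG library per line, and these are not analysed here.

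The peaks were chosen by their positions in both lists. A U937 peak on chromosomes 1 to 22 or X was counted when its midpoint lay at most 1 kb from the start site (TSS) of a protein-coding transcript in GENCODE 44, when it shared no base with an MV4-11 peak, and when its midpoint was not also within 1 kb of starts on opposite strands from a pair of genes. In all, 865 peaks met the rule, out of 21737 U937 peaks, of which 9250 were at promoters and 8026 at single promoters. The 1224 divergent promoter peaks that were left out included 29 that no MV4-11 peak overlapped. The other 7161 single-promoter peaks were shared, and the same rule turned round gave 3267 MV4-11-only peaks. The peak lists themselves chose these sets, so the numbers describe them and were not tested. No U937-only peak was a replicated observation: a peak missing from a list was not called in 1 library, which does not show that the protein was absent. The lists hold positions without heights or counts, so depth is unknown, and positions are printed as deposited on hg38 with an uncertainty of 1 bp.

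Protein-coding genes start from promoters of several kinds. Many promoters, above all those of genes that most cells use, lie in stretches rich in the CpG dinucleotide, whereas promoters used by few cell types are often poor in it. A gene can also hold alternative starts, upstream of or inside the gene body, that a cell type may use in place of the main one. Here the main TSS of a gene was that of its Ensembl canonical transcript, and every other protein-coding start was called alternative. A peak was counted at a main TSS when one lay within 1 kb of its midpoint, even where an alternative start was nearer. Distances from the TSS were taken from the nearest start.

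The sequences of some of the widest U937-only peaks show both kinds of promoter. Each is 100 bases of the plus strand of hg38 that lay outside annotated untranslated exons, and capitals mark CpG dinucleotides. ACSS1 (chr20:25058003-25058102, coding exon, minus-strand gene), FAAH (chr1:46394570-46394669, intron, plus-strand gene) and TRIB2 (chr2:12716835-12716934, just upstream of a plus-strand gene) had CpG-rich peak centres at main TSSs.
ACSS1: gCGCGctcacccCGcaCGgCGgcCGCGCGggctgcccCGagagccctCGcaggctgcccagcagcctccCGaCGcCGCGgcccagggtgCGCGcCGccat
FAAH: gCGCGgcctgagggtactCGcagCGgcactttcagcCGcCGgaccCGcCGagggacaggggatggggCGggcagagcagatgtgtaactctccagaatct
TRIB2: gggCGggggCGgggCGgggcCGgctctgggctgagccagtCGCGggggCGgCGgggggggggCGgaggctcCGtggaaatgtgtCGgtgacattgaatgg
SIGLEC7 (chr19:51142640-51142739, coding exon, plus-strand gene) and SIGLEC12 (chr19:51501576-51501675, coding exon, minus-strand gene) had CpG-poor centres at main TSSs.
SIGLEC7: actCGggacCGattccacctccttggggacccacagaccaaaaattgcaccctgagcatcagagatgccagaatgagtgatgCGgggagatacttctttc
SIGLEC12: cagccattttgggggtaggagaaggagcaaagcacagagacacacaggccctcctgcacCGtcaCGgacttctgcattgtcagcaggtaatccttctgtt
The ACSS1 window held 17 CpG dinucleotides, the TRIB2 window 11 and the FAAH window 9, against 3 in the SIGLEC7 window and 2 in the SIGLEC12 window.

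Further windows are shown because they carry letters that AP-1 and GATA factors bind, which separated the sets in part of the comparisons given further on. AP-1 is the FOS and JUN family, and its motif TGANTCA is in capitals in the windows of CCRL2 (chr3:46406884-46406983, upstream of a plus-strand gene), TM4SF19 (chr3:196338549-196338648, upstream of a minus-strand gene) and C15orf62 (chr15:40769564-40769663, upstream of the C15orf62 start and inside an annotated protein-coding gene body).
CCRL2: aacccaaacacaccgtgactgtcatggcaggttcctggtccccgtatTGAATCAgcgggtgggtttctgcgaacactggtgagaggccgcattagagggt
TM4SF19: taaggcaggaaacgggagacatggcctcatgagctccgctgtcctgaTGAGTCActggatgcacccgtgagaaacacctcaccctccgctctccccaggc
C15orf62: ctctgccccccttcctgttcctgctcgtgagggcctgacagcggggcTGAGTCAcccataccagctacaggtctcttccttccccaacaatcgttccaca
The GATA motif AGATAA, or its reverse complement, is in capitals in the windows of BCAS2 (chr1:114581929-114582028, upstream of a minus-strand gene), PADI4 (chr1:17308497-17308596, intron, plus-strand gene) and KLHL23 (chr2:169733618-169733717, upstream of the KLHL23 start and inside an annotated protein-coding gene body).
BCAS2: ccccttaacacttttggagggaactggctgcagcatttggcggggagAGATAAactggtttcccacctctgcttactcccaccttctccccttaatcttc
PADI4: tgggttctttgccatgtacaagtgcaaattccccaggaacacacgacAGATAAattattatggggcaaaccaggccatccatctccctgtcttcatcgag
KLHL23: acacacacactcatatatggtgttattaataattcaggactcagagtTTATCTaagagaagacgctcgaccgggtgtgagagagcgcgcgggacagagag

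Peaks found in U937 only made up 10.8% of the U937 single-promoter peaks, with a 95% Wilson interval of 10.1 to 11.5%. This and the later intervals cover counting error over peaks alone, and peaks of 1 library are not replicates. The U937-only share was 8.21% among peaks at main TSSs (564 of 6870) and 26.0% among peaks at alternative TSSs (301 of 1156). Of the peaks of 400 bp or more, 678 of 7447 (9.1%) were U937-only. Over U937 peaks of every kind, 31.4% had no overlapping MV4-11 peak, so promoter peaks were shared more often than the list as a whole. In the longer MV4-11 list, 31.8% of the single-promoter peaks were MV4-11-only, with 24.9% at main and 59.7% at alternative TSSs.

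The U937-only peaks were narrow. Their median width was 525 bp (508 to 549), with a range of 330 to 3014 bp, against 909 bp (895 to 922) for shared peaks and 584 bp (571 to 596) for MV4-11-only peaks. At main TSSs the median was 553.5 bp and at alternative TSSs 485 bp. Peaks of 1000 bp or more made up 105 of the 865 (12.1%), against 3073 of the 7161 shared peaks (42.9%). Width bears on the chance of an overlap, so it is given as a description.

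**Figure D1:**
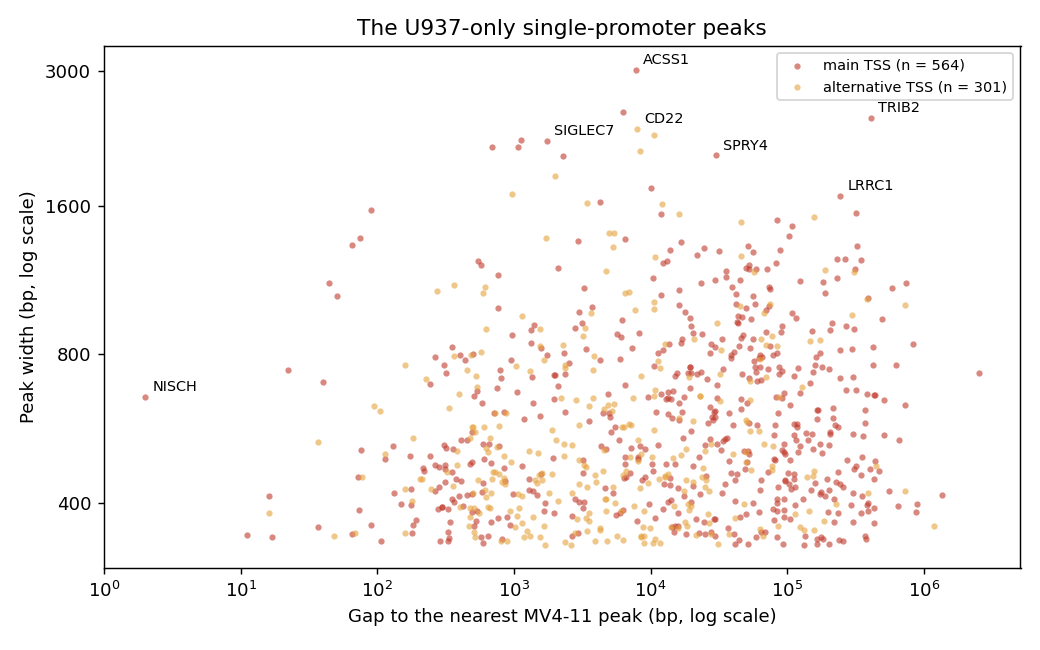
Width of each of the 865 U937-only single-promoter peaks (vertical axis, bp, log scale) against the gap to the nearest MV4-11 peak (horizontal axis, bp, log scale), with 1 point per peak, coloured by main (n = 564) or alternative TSS (n = 301). Gaps ran from 2 bp at NISCH to more than 100 kb, as at TRIB2 and LRRC1, and wide peaks occurred at short and at long gaps.

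The widest peak, 3014 bp at chr20:25056791-25059805, covered the main TSS of ACSS1, which encodes a mitochondrial acetyl-CoA synthetase. The nearest MV4-11 peak lay 7.79 kb away. FAAH, which encodes the hydrolase of the endocannabinoid anandamide, had a 2469 bp peak at chr1:46393385-46395854, and the nearest MV4-11 peak was 6.25 kb away. TRIB2, a pseudokinase gene that drives myeloid leukemia in mouse models, had a 2408 bp peak at chr2:12716158-12718566 with no MV4-11 peak within 412.3 kb. THEMIS2, which encodes a signalling adaptor of B cells and macrophages, had a 2174 bp peak 1.12 kb from the nearest MV4-11 peak. IGF2BP3, an oncofetal RNA-binding protein gene, had a 2102 bp peak 1.07 kb from an MV4-11 peak of 620 bp. These widest peaks thus ranged from isolated ones to ones with an MV4-11 peak close by.

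Further wide peaks at main TSSs lay at signalling and metabolic genes. SPRY4, an inhibitor of receptor tyrosine kinase signalling, had a 2021 bp peak (chr5:142324734-142326755) and a further U937-only peak of 816 bp at an alternative TSS 0.839 kb downstream, with the nearest MV4-11 peak 30.13 kb from the wider one. PTGER2, which encodes a prostaglandin E2 receptor, had a 2013 bp peak 2.27 kb from an MV4-11 peak of 295 bp. FAR2, a fatty acyl-CoA reductase gene, had a peak of 1740 bp, LRRC1 one of 1674 bp and FDX2, a mitochondrial ferredoxin gene for iron-sulfur cluster assembly, one of 1625 bp. None of these 5 genes had an MV4-11 peak within 1 kb of any of its TSSs.

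SIGLEC7 and SIGLEC12 encode sialic acid-binding receptors of the immunoglobulin superfamily, SIGLEC7 being an inhibitory receptor of NK cells and monocytes. SIGLEC7 had a 2165 bp peak at chr19:51141607-51143772, centred on a coding exon 319 bp past its main TSS. The nearest MV4-11 peak was 3436 bp wide and lay 1.74 kb away. SIGLEC12 had a 2105 bp peak at chr19:51500573-51502678, 0.689 kb from an MV4-11 peak of 566 bp. The family was looked at as a whole after these values were seen. Of 11 genes named SIGLEC with a number, 8 had a U937 peak within 1 kb of a TSS and 7 had an MV4-11 peak there. SIGLEC5, SIGLEC7 and SIGLEC12 were the 3 with a U937-only single-promoter peak. SIGLEC1 and SIGLEC11 had MV4-11 peaks and no U937 peak at their TSSs. In the Sprouty family, looked at in the same way, SPRY1, SPRY2 and SPRY4 had U937-only peaks (3 of 4 genes), and SPRY2 also had a shared one. Of 3 TRIB genes, TRIB2 alone had a U937-only peak. The share was 4.13% over all protein-coding genes and 8.39% among genes with a U937 TSS peak. These families were picked because members had been seen, so their counts do not show a family trait.

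Peaks at alternative TSSs alone were led by CD22, an inhibitory receptor gene of B cells. Its 2289 bp peak at chr19:35318640-35320929 lay at a start -9.93 kb from the main TSS, a negative value being upstream, with the nearest MV4-11 peak 7.99 kb away. SLC49A3, a solute carrier gene, had a 2223 bp peak 1.83 kb downstream of its main TSS. ANKRD11, a chromatin cofactor gene, had peaks of 2067 and 1406 bp at starts 173.6 and 170.2 kb inside the gene, and CXXC5, a CXXC zinc finger gene, peaks of 1691 and 577 bp at starts 2.64 and 27.1 kb inside. HM13, which encodes the signal peptide peptidase, had a peak of 1837 bp 45.2 kb inside the gene. CALML4 had a peak of 1623 bp, MANEAL one of 1610 bp beside a member of 358 bp at its main TSS, and ADPRHL1 one of 1541 bp. MV4-11 peaks at a TSS of the same gene were present for CD22, ANKRD11, HM13, CXXC5 and CALML4, and not for SLC49A3, MANEAL and ADPRHL1.

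Many U937-only peaks lay near an MV4-11 peak, and others lay far from any. An MV4-11 peak was within 1 kb of 183 of the 865 peaks (21.2%, 18.6 to 24.0), among them 106 with a gap of at most 500 bp. A gap over 1 and up to 10 kb was found for 206 peaks, one over 10 and up to 100 kb for 312, and one over 100 kb for 164 (18.96%, 16.5 to 21.7). Of the MV4-11-only peaks, 12.2% (11.1 to 13.4) were more than 100 kb from a U937 peak. The lists differed in length, which bears on these gaps. The median gap was 27106.5 bp for U937-only peaks at main TSSs and 4825 bp for those at alternative TSSs.

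The widest peaks with no MV4-11 peak within 100 kb were at TRIB2, LRRC1 (245.5 kb), KCTD1 (1544 bp wide, 321.2 kb), IQCJ-SCHIP1 (1517 bp, at a start 490.5 kb inside the gene, 158.5 kb) and RUSC2 (1454 bp, 108.6 kb). At the limits of the rule, the members nearest to an MV4-11 peak were those at NISCH, SNTB2 and ALDH5A1, with gaps of 2, 11 and 16 bp, and the peaks at HELZ, NBPF14 and TGFB3 were shared by overlaps of 1, 1 and 2 bp. Midpoints of members at TLE5, PLEKHF1 and FHIP1A lay 995, 993 and 993 bp from a TSS, and those of peaks at HOXA6, USP28 and TMEM33 fell outside at 1002, 1003 and 1005 bp. C19orf38, TMEM151B and OR11L1 had peaks of 400 bp, and KANK1, PDE4D and AXIN2 peaks of 399 bp that left the set at the limit of 400 bp.

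At the level of genes, the 865 peaks belonged to 810 of 19626 protein-coding genes (4.13%), and MV4-11-only peaks belonged to 14.3% of genes. Of the 810, 504 (62.2%, 58.8 to 65.5) had no MV4-11 peak within 1 kb of any of their TSSs. The corresponding share of genes with MV4-11-only peaks that had no U937 peak was 66.0% (64.2 to 67.7). No MV4-11 peak lay anywhere in the gene or within 1 kb of it for 365 genes (45.1%, 41.7 to 48.5). The share without an MV4-11 TSS peak was 77.7% (74.1 to 81.0) for the 556 genes with a member at the main TSS and 30.3% (25.2 to 36.0) for the 274 genes with a member at an alternative TSS. The rule bears on this contrast. No MV4-11 peak overlaps a member at a main TSS, whereas members at alternative TSSs leave the main TSS free. Of the 301 alternative-TSS members, 210 (69.8%) lay in genes with an MV4-11 peak at a TSS, against 57.4% of all protein-coding genes. The first share counts peaks. The other counts genes, also those with a single TSS or without a U937 peak, so they are not like for like. The gene's main TSS had an MV4-11 peak for 186 of the 301 (61.8%) and a U937 peak for 192 (63.8%).

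In 47 genes there were 2 or more U937-only peaks. PACSIN3, which encodes an endocytic adaptor protein, had 4, of 1066, 635, 497 and 442 bp, at starts up to 7.21 kb downstream of the main TSS, and 1 MV4-11 peak of 2457 bp lay in the gene. TP53I11, ASB2, ARHGEF1, TNRC18, TTC39A and TRIO had 3 each. TP53I11 and ASB2, a ubiquitin ligase subunit gene induced by retinoic acid in myeloid leukemia cells, had no MV4-11 peak in the gene or within 1 kb of it, whereas ARHGEF1, a guanine nucleotide exchange factor gene, had 11.

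U937-only peaks lay at main TSSs less often than shared peaks did. The share at a main TSS was 65.2% (564 of 865, 62.0 to 68.3) for U937-only peaks and 88.1% (87.3 to 88.8) for shared peaks, a difference of -22.9 percentage points with a Newcombe interval of -26.2 to -19.7. MV4-11-only peaks had 63.1% (61.5 to 64.8), and the difference of U937-only from MV4-11-only peaks was 2.06 points (-1.57 to 5.58). A further 241 U937-only peaks (27.9%) lay at starts downstream of the main TSS and 60 (6.94%) at starts upstream of it, against 7.92% and 4.02% of shared peaks. Of the 301 alternative starts, 165 were more than 10 kb from the main TSS. The midpoint lay within 500 bp of the TSS for 652 U937-only peaks (75.4%, 72.4 to 78.1) and for 89.0% (88.3 to 89.7) of shared peaks. An intron held the midpoint of 50.4% (47.1 to 53.7) of U937-only and 36.1% (35.0 to 37.2) of shared peaks, and an untranslated exon that of 21.4% (18.8 to 24.2) and 29.4% (28.3 to 30.4).

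**Figure D2:**
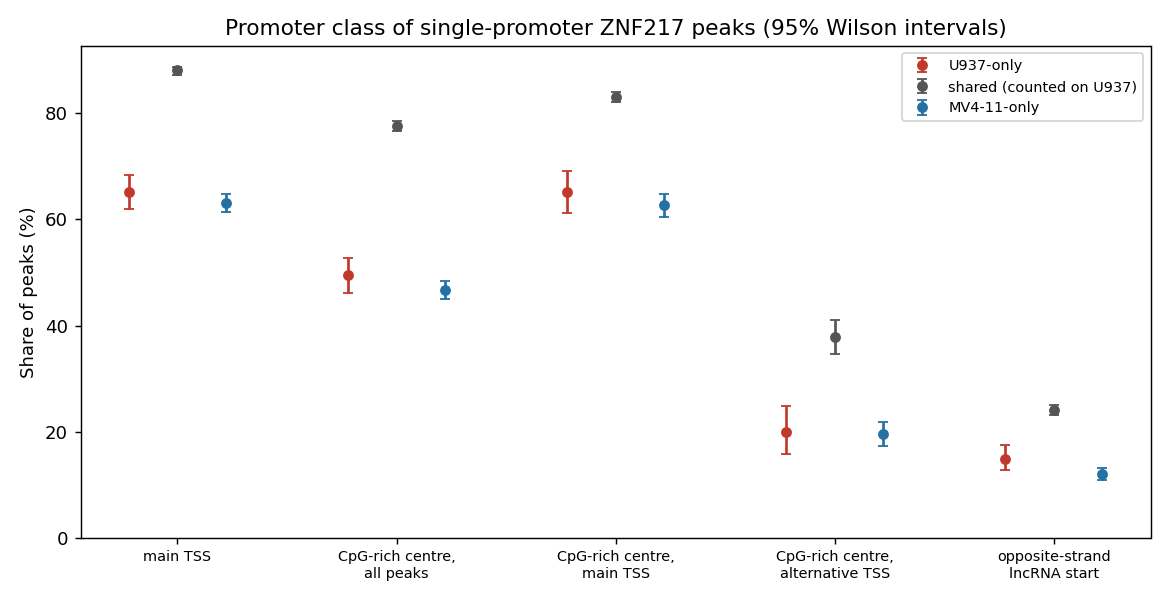
Share of single-promoter peaks (vertical axis, percent) at a main TSS, with a CpG-rich centre, and with the start of an lncRNA on the opposite strand within 1 kb, for U937-only, shared and MV4-11-only peaks. Points are shares and bars 95% Wilson intervals. U937-only peaks (65.2% at main TSSs, 49.5% CpG-rich) lie below shared peaks (88.1% and 77.6%) in each class. Their differences from MV4-11-only peaks are 2.06 points at main TSSs, 2.74 points for CpG-rich centres and 2.88 points for lncRNA starts.

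The central 300 bp of a peak was called CpG-rich when its GC content was at least 50% and its CpG count at least 0.6 of that expected from its C and G content. By this measure 428 of the 865 U937-only peaks were CpG-rich (49.5%, 46.2 to 52.8), against 77.6% (76.6 to 78.6) of shared peaks, a difference of -28.1 points (-31.6 to -24.7). MV4-11-only peaks had 46.7% (45.0 to 48.5), and the difference from them was 2.74 points (-0.999 to 6.48). Over the windows of 300 bp centred on all 19625 main TSSs, 68.3% were CpG-rich.

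The difference from shared peaks was also present within each TSS class. At main TSSs, 65.2% (61.2 to 69.1) of U937-only and 83.0% (82.1 to 83.9) of shared peaks were CpG-rich, and at alternative TSSs 19.9% of U937-only and 37.8% of shared peaks, with differences of -17.8 points in both (-21.9 to -13.8 and -23.1 to -12.02). For peaks of 400 bp or more it was -26.7 points (-30.6 to -22.9). Within the 4 quartiles of U937 peak width it was -21.8, -28.7, -19.2 and -27.5 points, from narrow to wide, and each interval excluded 0.

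**Figure D3:**
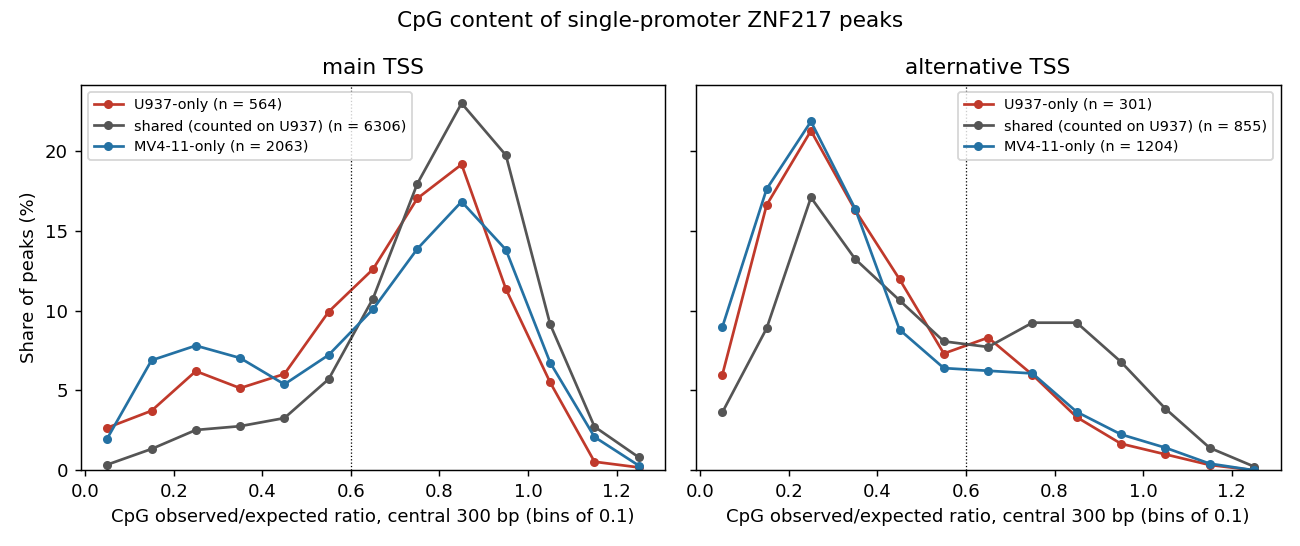
Distribution of the CpG observed/expected ratio in the central 300 bp (horizontal axis, bins of 0.1) for peaks at main (left) and alternative TSSs (right), as the share of each set (vertical axis, percent), for U937-only, shared and MV4-11-only peaks. The dotted line marks 0.6. At main TSSs the median ratio was 0.728 in U937-only and 0.823 in shared peaks, and at alternative TSSs 0.341 and 0.472.

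An lncRNA gene started on the opposite strand within 1 kb of 14.9% (12.7 to 17.4) of U937-only and 24.0% (23.1 to 25.04) of shared peaks, a difference of -9.12 points (-11.5 to -6.41), and of 12.03% (11.0 to 13.2) of MV4-11-only peaks, a difference of 2.88 points (0.38 to 5.63) from these. The midpoint lay upstream of the TSS in 45.3% (42.0 to 48.6) of U937-only and 46.5% (45.4 to 47.7) of shared peaks, a difference of -1.18 points (-4.67 to 2.34) whose interval included 0. Among CpG-rich centres this difference was -6.88 points (-11.6 to -1.99). MV4-11-only peaks had 49.1%, and the difference from them was -3.78 points (-7.49 to -0.034) over all TSSs and -7.07 points (-11.6 to -2.42) at main TSSs.

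The middle 300 bp of each peak was read on both strands for 15 of 16 motifs, and the TATA box (TATAAA) was looked for in the 40 bp before the TSS on the strand of the gene. A match is a description of letters and not of binding. The 32 comparisons of U937-only peaks with shared and with MV4-11-only peaks were not adjusted for their number, and intervals near 0 carry little weight. The ZNF217 core was searched as CAGAAC, or with its last letter T. The letters of the ETS motif were CCGGAAG, and those of the PU.1 motif were GAGGAAGT. For RUNX factors the pattern was TGTGGTT, and for forkhead factors it was TGTTTAC. The C/EBP pattern was TTGCNNCAA, or the same without its second C. The E-box was read as CACGTG, the box of NF-Y as CCAAT, and the GC box as GGGGCGG. The AP-1 and GATA patterns were those given above, and longer patterns were used for NRF1, MEF2, IRF and the CTCF core.

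**Figure D4:**
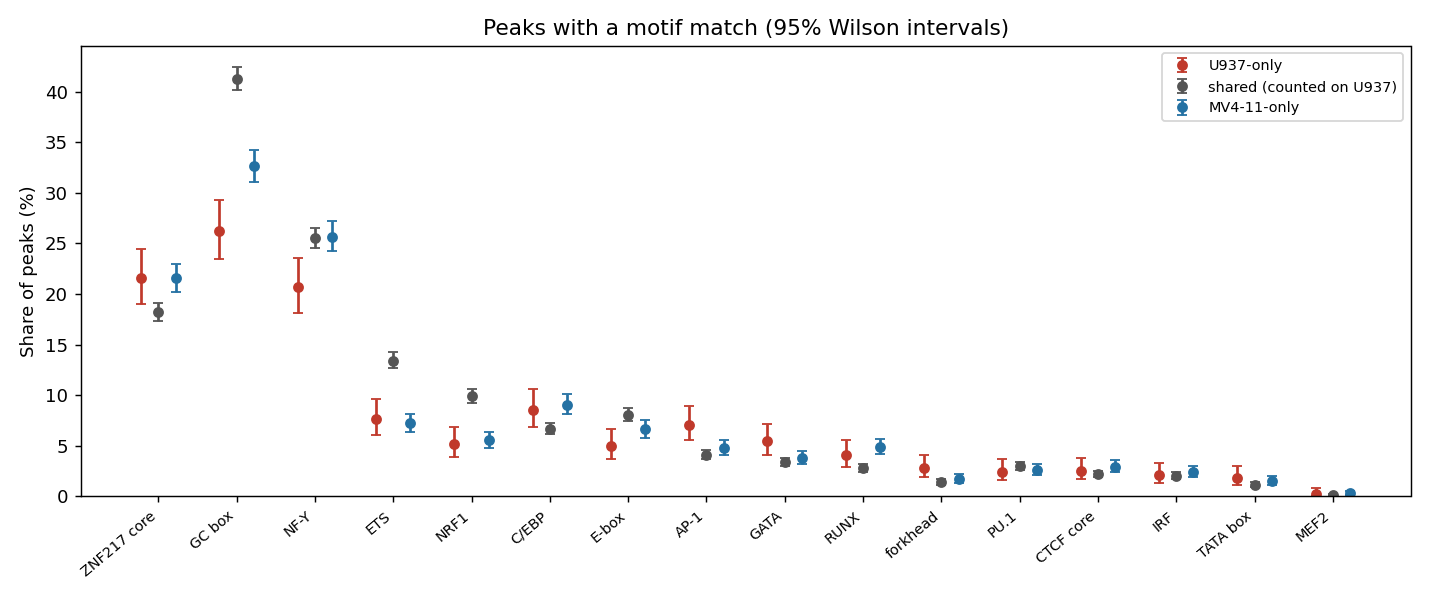
Share of single-promoter peaks (vertical axis, percent) with at least 1 match of each of 16 motifs, for U937-only, shared and MV4-11-only peaks. Points are shares and bars 95% Wilson intervals. The GC box was matched in 26.2% of U937-only and 41.3% of shared peaks, and the AP-1 motif in 7.05% and 4.09%.

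The GC box and the ETS, NRF1 and NF-Y motifs were less frequent in U937-only than in shared peaks. The letters of the GC box, ETS and NRF1 motifs contain CG, so their shares are not independent of CpG content. CpG-rich centres made up 49.5% of U937-only and 77.6% of shared peaks. For these 3 motifs the differences within CpG-rich or CpG-poor centres are not reported here. The GC box, to which SP1 family factors bind, was present in 26.2% of U937-only, 41.3% of shared and 32.6% of MV4-11-only peaks, and in 43.98% of windows at all main TSSs. The difference was -15.0 points (-18.1 to -11.8) from shared and -6.39 points (-9.64 to -2.96) from MV4-11-only peaks. The ETS motif was present in 7.63% of U937-only, 13.4% of shared and 7.22% of MV4-11-only peaks (13.4% at all main TSSs), and the NRF1 motif in 5.20%, 9.92% and 5.54% (11.9%). The CCAAT box of NF-Y was present in 20.7% of U937-only, 25.5% of shared and 25.7% of MV4-11-only peaks (32.8% at all main TSSs). Among CpG-rich centres alone it was present in 16.8% of U937-only and 25.6% of shared peaks, a difference of -8.80 points (-12.2 to -4.80), and among CpG-poor centres in 24.5% and 25.2%, a difference of -0.718 points whose interval included 0.

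AP-1, GATA and forkhead motifs were more frequent in U937-only peaks than in both other sets when all TSSs were counted. At alternative TSSs alone, the intervals of the AP-1 and GATA differences from shared peaks included 0 (0.06 points, -3.44 to 4.26, for AP-1 and -1.14 points, -3.44 to 1.89, for GATA). The AP-1 motif was present in 61 U937-only peaks (7.05%), 4.09% of shared and 4.74% of MV4-11-only peaks, and in 4.62% of windows at all main TSSs. The difference was 2.96 points (1.36 to 4.91) from shared and 2.31 points (0.595 to 4.33) from MV4-11-only peaks. CpG content moved with it: among CpG-rich centres the difference from shared peaks was -0.524 points (-1.62 to 1.36), and among CpG-poor centres, with 11.9% of U937-only and 9.17% of shared peaks, 2.73 points (-0.373 to 6.35), so neither interval excluded 0. From MV4-11-only peaks the difference among CpG-poor centres was 4.89 points (1.89 to 8.44). The 33 AP-1 matches at main TSSs included the peaks at DCSTAMP, whose product is needed for the fusion of macrophages and osteoclasts. TIRAP, an adaptor of Toll-like receptor signalling, and TM4SF19 were also among them. So were SPAG6, CTRB1, CELA2B and OR2B11, so the matches were not limited to leukocyte genes.

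The GATA motif was present in 47 U937-only peaks (5.43%), 3.38% of shared and 3.80% of MV4-11-only peaks. The difference was 2.05 points (0.658 to 3.82) from shared and 1.64 points (0.136 to 3.46) from MV4-11-only peaks. All main TSSs, with 5.41%, were at the level of the U937-only peaks. At main TSSs alone the shares were 6.38%, 3.19% and 3.01%, with a difference of 3.20 points (1.40 to 5.56) from shared and 3.38 points (1.45 to 5.79) from MV4-11-only peaks. The difference from shared peaks was 2.15 points (0.466 to 4.62) among CpG-rich centres and -0.185 points (-2.49 to 2.69) among CpG-poor ones, where the interval included 0. Of the 564 members at main TSSs, 36 had a match. They included PADI4, C3, a complement component gene, DOCK8 and LILRA6, a leukocyte immunoglobulin-like receptor gene. BCAS2, POLD3, PSMC2 and OR2B11 were also among the 36, so the matches were not limited to leukocyte genes. The forkhead motif was present in 24 U937-only peaks (2.77%), 1.41% of shared and 1.71% of MV4-11-only peaks, with a difference of 1.36 points (0.412 to 2.71) from shared and 1.06 points (0.0257 to 2.44) from MV4-11-only peaks.

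The C/EBP, RUNX and ZNF217 core motifs were more frequent than in shared peaks, with intervals from MV4-11-only peaks that included 0. The C/EBP motif was present in 8.55% of U937-only, 6.69% of shared and 9.06% of MV4-11-only peaks, a difference of 1.87 points (0.076 to 3.99) from shared peaks. The RUNX motif was present in 4.05%, 2.78% and 4.90%, a difference of 1.27 points (0.0732 to 2.84) from shared peaks. The ZNF217 core motif was present in 21.6% of U937-only, 18.2% of shared and 21.6% of MV4-11-only peaks, and in 20.1% of windows at all main TSSs, and the difference from shared peaks was 3.44 points (0.668 to 6.43).

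Of 23 genes named in the study, ERG, ZNF217 and RARA had a U937-only peak (13.0%, 4.54 to 32.1, against 4.13% of all protein-coding genes), each at an alternative start. MV4-11-only peaks were found at 7 of the 23 (30.4%, against 14.3% of all genes). ERG, an ETS factor gene, had a 589 bp peak at chr21:38660833-38661422, at a start -162.2 kb from its main TSS, where negative values are upstream. The ZNF217 gene itself had a 543 bp peak at chr20:53608384-53608927, at a start -15.05 kb from its main TSS and 0.669 kb from an MV4-11 peak of 287 bp. RARA, the retinoic acid receptor gene, had a 383 bp peak 36.06 kb inside the gene. MV4-11 had 1 peak in ERG or within 1 kb of it, 5 in ZNF217 and 13 in RARA.

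Of 46 myeloid transcription factor genes, 6 had a U937-only peak (13.0%, 6.12 to 25.7, against 4.13% of all genes). MV4-11-only peaks were found at 14 of the 46 (30.4%, against 14.3%), and 84.8% of the list had a U937 peak at a TSS, against 49.2% of all genes, so the list was marked more often in both lines. MITF, the microphthalmia factor gene, had a 394 bp peak at its main TSS and the nearest MV4-11 peak was 643.3 kb away. VDR, the vitamin D receptor gene, had a 390 bp peak 0.33 kb from an MV4-11 peak of 816 bp. IRF8, a factor of monocyte and dendritic cell development, had peaks of 541 and 526 bp inside the gene, 0.182 and 2.34 kb from MV4-11 peaks. FOSL2, an AP-1 member, and FLI1, an ETS factor, had peaks of 405 and 356 bp at alternative TSSs.

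Of 33 other blood lineage factor genes, 4 had a U937-only peak (12.1%, 4.82 to 27.3, against 4.13% of all genes), and 8 had an MV4-11-only peak (24.2%, against 14.3%). None of the 4 had an MV4-11 peak at a TSS, as for 62.2% of all genes with a U937-only peak. TOX, a factor of T cell development, had a 925 bp peak centred at -680 bp from its main TSS, PAX5, the B cell identity factor, a 686 bp peak 8.52 kb inside the gene, GATA2, a stem and progenitor cell factor, a 486 bp peak 4.67 kb inside the gene, and EOMES, a T-box factor of T and NK cells, a 331 bp peak at its main TSS. PAX5 held 7 MV4-11 peaks in its body, and TOX, GATA2 and EOMES held none. Among 102 developmental factor genes outside the HOX clusters, 6 had a U937-only peak (5.88%, 2.72 to 12.2, an interval that includes the 4.13%). MV4-11-only peaks were found at 11 of the 102 (10.8%, against 14.3%). The 6 genes included LHX2 (1227 bp), POU4F1 (943 bp) and GATA6 (760 bp), with peaks at main TSSs and no MV4-11 peak in the gene.

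Of 69 monocyte and macrophage genes, 5 had a U937-only peak (7.25%, 3.13 to 15.9, an interval that includes the 4.13% of all genes). All 5 peaks lay at main TSSs without an MV4-11 peak at any TSS of the gene, as for 77.7% of genes with a main-TSS member. These were SIGLEC7, S100A9 (843 bp), a calprotectin subunit gene, CX3CR1 (666 bp), the fractalkine receptor gene, TLR4 (475 bp), the lipopolysaccharide receptor gene, and C5AR1 (420 bp), the C5a receptor gene. All 5 had CpG-poor centres, whereas 65.2% of U937-only peaks at main TSSs were CpG-rich. CpG content is not given here for the shared and MV4-11-only peaks of this list. It is therefore not shown to be particular to the U937-only peaks. The nearest MV4-11 peaks lay 1.33 kb from the S100A9 peak, 11.9 kb from that of CX3CR1, 20.5 kb from that of TLR4 and 5.30 kb from that of C5AR1. MV4-11-only peaks were found at 16 genes of the same list (23.2%, against 14.3% of all genes), so it was not marked in U937 alone. Of the list, 42.0% had a U937 and 59.4% an MV4-11 peak at a TSS, against 49.2% and 57.4% of all genes. Of 31 granulocyte genes, 2 had a U937-only peak (6.45%, 1.79 to 20.7). These were PADI4 (861 bp), which encodes a histone-citrullinating enzyme, and EPX (347 bp), eosinophil peroxidase. Of 43 T and NK cell genes TIGIT alone had one (2.33%, 0.412 to 12.1). Of 29 B and plasma cell genes CD22 alone had one (3.45%, 0.611 to 17.2), and of 39 erythroid and megakaryocyte genes none (0 to 8.97%). The intervals of these lists and of the granulocyte list include the 4.13% of all genes.

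Among gene families, C2H2 zinc finger genes and regulators of small GTPases held the largest numbers. U937-only peaks were found at 34 of 562 zinc finger genes (6.05%, 4.36 to 8.34). No MV4-11 peak lay at a TSS for 26 of these 34, against 62.2% of all genes with a U937-only peak. Most of the 34 had their peak at the main TSS, and the share was 77.7% over all genes with a main-TSS member. ZNF93 had a peak of 1125 bp, ZNF71 one of 1066 bp, ZNF616 one of 995 bp and ZNF808 one of 896 bp, all at main TSSs on chromosome 19, with gaps of 124.0, 190.6, 49.7 and 206.8 kb. Of 289 genes for regulators and members of the small GTPase families, 22 had one (7.61%, 5.08 to 11.3), among them DENND5A (1334 bp), RAB32 (1325 bp), TBC1D9 (1141 bp) and ARHGEF12 (867 bp). Of these 22 genes, 7 had no MV4-11 peak at a TSS. MV4-11-only peaks were found at 16.55% of the zinc finger and 18.7% of the small GTPase genes, against 14.3% of all genes. When genes without a U937 TSS peak were left out, U937-only peaks were found at 8.39% of 9658 genes, 12.01% of zinc finger genes and 13.3% of the small GTPase genes.

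**Figure D5:**
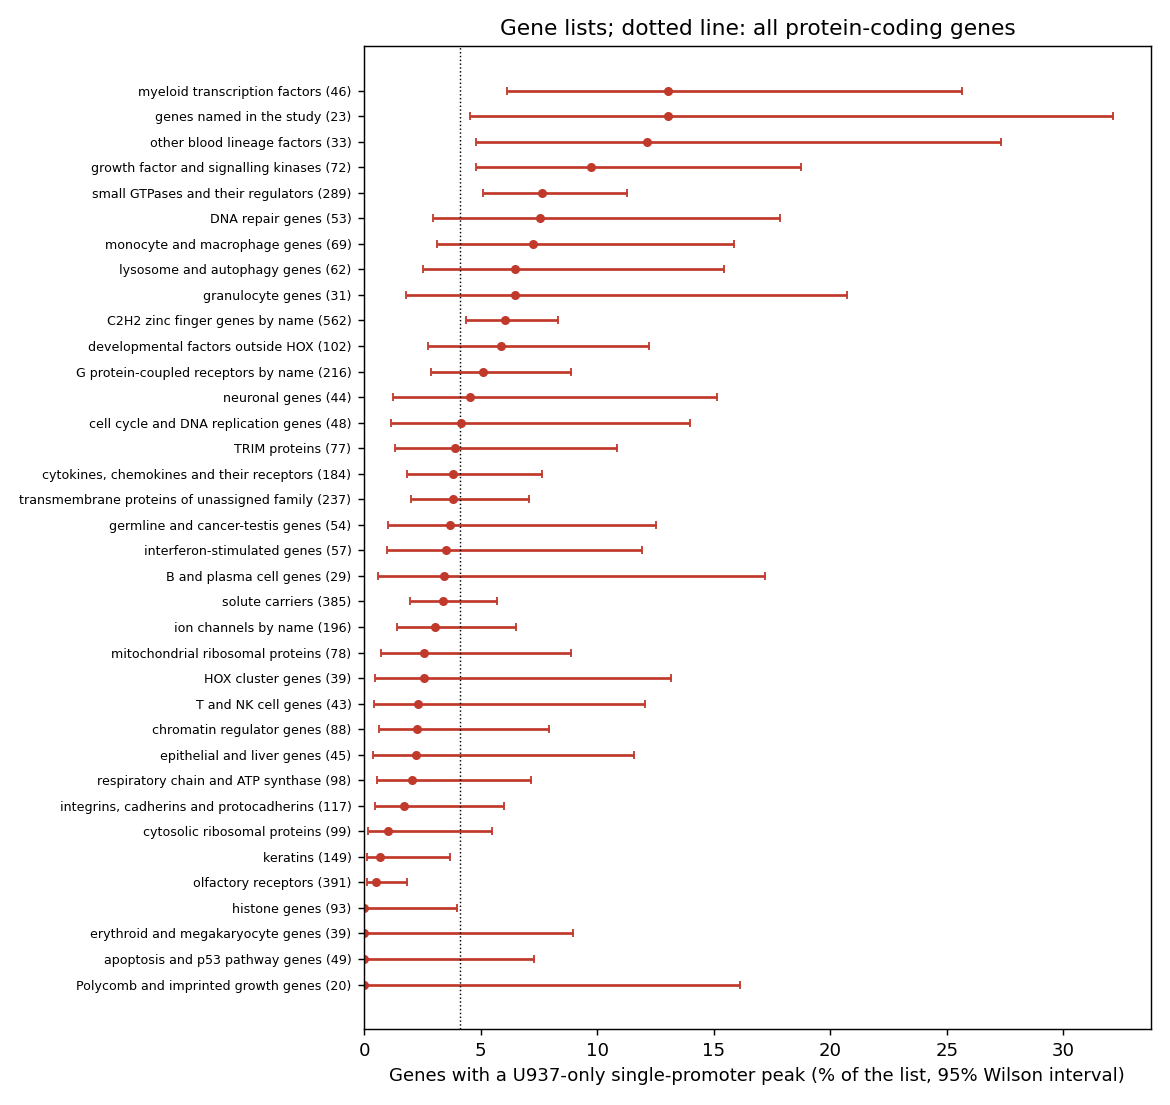
Share of the genes of each list with a U937-only single-promoter peak (horizontal axis, percent, with 95% Wilson intervals), with the number of genes in brackets. The dotted line is the share over all protein-coding genes (4.13%). Intervals of most lists include the line. The intervals of the study, myeloid factor, other blood factor, signalling kinase, small GTPase regulator and zinc finger lists lie above it, and those of the keratin, olfactory receptor and histone (0 of 93) lists below. Only 1 of 149 keratin and 2 of 391 olfactory receptor genes had any U937 TSS peak, against 58 of the 93 histone genes.

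Signalling genes had U937-only peaks at main and at alternative TSSs. Of 72 growth factor and signalling kinase genes, 7 had a U937-only peak (9.72%, 4.79 to 18.7, against 4.13% of all genes) and 21 an MV4-11-only peak (29.2%, against 14.3%). Genes with a U937-only peak included FGFR1 (955 bp, alternative TSS), JAK3 (727 bp) and ABL2 (710 bp). Of 184 cytokine, chemokine and receptor genes, 7 had one (3.80%, 1.855 to 7.64). They were led by CXCL2 (1011 bp), a neutrophil chemokine gene, with no MV4-11 peak within 58.06 kb, IL32 (778 bp), IL17D (517 bp) and IL1R1 (507 bp). Of 216 genes for G protein-coupled receptors, 11 had a U937-only peak (5.09%, 2.87 to 8.89), led by PTGER2 and GPR137B (1087 bp). The intervals of the cytokine and G protein-coupled receptor lists include the 4.13% of all genes. Of 62 lysosome and autophagy genes, 4 had one (6.45%, 2.54 to 15.4, an interval that includes the 4.13% of all genes), namely FUCA1 (767 bp), NEU1 (735 bp), LIPA (593 bp) and ARSB (419 bp). Among genes with a U937 TSS peak the share was 7.41% in this list and 8.39% over all.

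Lists of general cell functions had shares near or below that of all genes, apart from DNA repair genes. There the share was 7.55% (4 of 53, 2.97 to 17.9), an interval that includes the 4.13% of all genes. Among genes with a U937 TSS peak, the share was 8.70% for DNA repair genes, against 8.39% over all. It was 4.44% for cell cycle and 2.60% for chromatin regulator genes. U937-only peaks were found at 2 of 88 chromatin regulator genes, BMI1, a Polycomb subunit gene with peaks of 971 and 350 bp, and KMT2B (723 bp), at 2 of 48 cell cycle genes, CCNE1 (431 bp) and TOP2A (365 bp), at 2 of 78 mitochondrial ribosomal protein genes, and at none of the 93 histone genes. All 4 DNA repair genes with one, among them PALB2 (391 bp), BRCA2 (375 bp) and FANCA (374 bp), also had an MV4-11 peak at a TSS. So did all 53 genes of that list. The gap to the nearest MV4-11 peak was 0.507 kb at PALB2 and 0.48 kb at BRCA2.

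By chromosome, the share of single-promoter peaks that were U937-only was highest on chromosome 4 (51 of 272, 18.8%, 14.6 to 23.8), with SLC49A3, S100P, SPRY1 and TBC1D9 as the widest. It was lowest on chromosome 21 (3 of 88, 3.41%, 1.17 to 9.55) and 6.67% (4.76 to 9.26) on chromosome 17, against 10.8% over all. On chromosome 19, the share was 10.6% (8.44 to 13.2) in U937, and 44.8% (41.7 to 47.8) of the MV4-11 peaks there were MV4-11-only. These are 23 chromosomes without adjustment, and copy number was not measured here.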

How the data were processed

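According to the methods of the paper and the submitters' processing notes, the authors aligned reads to hg38 with Bowtie2 2.4.4 and called peaks per library with MACS3 3.0 from paired-end fragments. Whether the IgG library served as control was not given in the sources used here. The deposited values are positions (unit: other): each peak is a chromosome, a start and an end, with no score or count. Depth is therefore unknown.

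Peaks were annotated by midpoint against GENCODE 44 (78398 protein-coding TSSs), and the midpoint was assigned to the nearest TSS. Sequences came from hg38. Matplotlib 3.10.9, bedtools 2.31.1, SciPy 1.17.1, pandas 2.3.3, NumPy 2.4.6 and Python 3.11.15 were used, and the overlap, annotation and motif steps were tested on simulated data. Shares have Wilson, their differences Newcombe and medians binomial order-statistic intervals at the 95% level. No p-value is given, since each line had a single library.

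The set of peaks and the 36 gene lists, 20 written by hand and 16 by name pattern, were chosen with earlier results of these data known. Named peaks were the 12 widest at main and 8 widest at alternative TSSs, those at genes of the study, myeloid and other blood factor lists, up to 4 per other list, genes with 2 or more, the 5 widest without an MV4-11 peak within 100 kb, and those at each limit. Some peaks under this rule are not reported here. Peaks shown for sequence, motifs, chromosome 4 and the SIGLEC, Sprouty and TRIB families, and some with shared functions, were named after their values were seen. Alternatives were other definitions of overlap, promoter, main TSS, CpG richness and list width.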

Additional observations from a re-analysis of the deposited data

How the results depend on the processing

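The size of the U937-only set depended on how sharing and promoters were defined. Against 865 peaks, 810 genes and the other main values, 32 of 77 alternative values lay within the 95% interval, or within 1.5 times for counts, and 45 did not. A reciprocal overlap of 50% gave 2851 peaks, a U937-only share of 35.5%, 75.6% at main TSSs, a median width of 642 bp, 59% CpG-rich, 2487 genes and 20.4% of genes without an MV4-11 TSS peak. Counting an MV4-11 peak within 500 bp as shared gave a U937-only share of 9.46% and 70.5% of genes without an MV4-11 TSS peak. Counting one within 1 kb gave a U937-only share of 8.5%, a median width of 555.5 bp, 53.1% CpG-rich and 76.5% of genes without an MV4-11 TSS peak. A promoter window of 500 bp gave a U937-only share of 9.28%, 56.6% CpG-rich and 72.5% of genes without an MV4-11 TSS peak. One of 3 kb gave 1446 peaks, a U937-only share of 14.8%, 68.5% at main TSSs, 34.4% CpG-rich, 1287 genes and 43% of genes without an MV4-11 TSS peak. Using the TSSs of any transcript gave a U937-only share of 13.4%, 47.5% at main TSSs, 38.7% CpG-rich and 48.5% of genes without an MV4-11 TSS peak. Taking U937 peaks of 400 bp or more gave a U937-only share of 9.1%, a median width of 615 bp and 65.8% of genes without an MV4-11 TSS peak. Limiting both lists to 400 bp gave a U937-only share of 11.7%, 69.95% at main TSSs, a median width of 630 bp, 56% CpG-rich and 69.1% of genes without an MV4-11 TSS peak. Leaving out MV4-11 peaks under 330 bp gave a U937-only share of 11.7%. Taking the 21737 widest peaks of each list gave 1484 peaks, a U937-only share of 18.5%, 72.6% at main TSSs, a median width of 569.5 bp, 59.2% CpG-rich, 1398 genes and 72.9% of genes without an MV4-11 TSS peak. Taking the outermost TSS as the main one gave 61.9% at main TSSs. A CpG ratio of 0.75 with 55% GC gave 31.7% CpG-rich. Keeping divergent promoters gave a U937-only share of 9.66%. The differences from shared peaks, whose alternatives were added after seeing the data, kept their direction and their intervals excluded 0 in all 44 fits: -34.4 to -15.5 points for main TSSs, -34.7 to -18.9 for CpG-rich centres, 1.70 to 3.91 for AP-1 and 1.37 to 2.48 for GATA. None of these alternatives split the peaks by CpG content or by TSS class. Within those classes, some AP-1 and GATA differences given above were negative or had intervals that included 0.

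With 1 library per line, differences between lines and between libraries cannot be told apart. Depth is unknown and the MV4-11 list is longer, so a peak missing from 1 list was not shown to be absent in those cells. Peak height could not be used. No paired analysis was possible because each line had a single ZNF217 library.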
